A study of Mus musculus with 5 samples.

Results

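Integrins are surface receptors made of an alpha and a beta chain, which tie a cell to the extracellular matrix or to other cells. DHSs (DNaseI hypersensitive sites), where chromatin is accessible to the nuclease, were examined at 10 mouse integrin genes of 21000 protein-coding genes with a curated RefSeq mRNA. The genes were taken by symbol. Itgal, Itgam and Itgax encode the alpha chains that pair with the product of Itgb2, and the resulting beta2 integrins are found on leukocytes, where they bind ICAM-type ligands, fibrinogen and complement-coated particles. Itga4, Itga5, Itga6, Itga9 and Itgav encode alpha chains of which all can pair with the broadly expressed beta1 chain, encoded by Itgb1. The products of Itga4 and Itga9 bind the endothelial ligand VCAM1, that of Itga5 fibronectin, that of Itgav vitronectin and other matrix proteins, and that of Itga6 laminin.

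To follow the path from mesoderm to macrophages, mouse ES cells of strain 129 with GFP at the Brachyury (Bry) gene were differentiated in vitro and sorted at 5 stages. Mesoderm (MES) cells were GFP+ without Flk1. Hemangioblasts (HB), which have blood, endothelial and smooth muscle potential, were GFP+ with Flk1. Cells of the hemogenic endothelium (HE), from which blood arises, were Tie2+, cKit+ and CD41-, and their label names GFP as well. Progenitors of blood (HP) were sorted on CD41 and macrophages (MAC) on CD11b. MAC were grown from CD41+ cells. All stages carry the reporter and come from a single ES cell line kept on embryonic fibroblasts, which limits the model. Each stage had 1 list of sites. The MAC label names 2 replicates together, but 1 list was given for it, so no stage had a replicate, no spread between replicates could be given, and no difference between stages was tested. Each list is an average over a population, in which fewer cells with an open site and a less open site in each cell cannot be told apart. CD11b is the product of Itgam and CD41 that of Itga2b, so both of these genes are also sorting markers.

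From MES to MAC the lists held 21949, 24729, 33305, 17734 and 37456 sites, with median widths of 800, 900, 1200, 900 and 600 bp. They give a start and an end, with no read count or height. Depth is therefore unknown, and a site that is not listed may be closed or may not have been called. Promoters of all 6 macrophage marker genes checked, Itgam among them, held a site in MAC, against 1 of 6 in each other list. All 5 hemogenic endothelium markers held one in HE, and 3 of them in HP. The 4 mesoderm markers held one in MES and in HB alike, and the 3 hemangioblast markers in HB, HE and HP, so these lists do not separate those stages. Of 4 hematopoietic progenitor markers only 2, Itga2b and Runx1, held one in HP, where Gata1 and Gfi1b had none. In MES, HB, HE and HP, 2 of 4 mesenchymal genes held a promoter site in each list, though not the same 2 throughout, and in MAC none did. Of 4 neutrophil genes only S100a8 held one in MAC. The part of other cells in the results was not tested.

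A site was assigned to a gene if it came within 1 kb of one of its transcription start sites (TSS), here called a promoter site, or if it lay inside the gene or up to 100 kb from its TSS and the gene was the nearest protein-coding one. Distances run from the middle of a site to the most upstream curated TSS, and positions are on mm10. Of all 135173 sites, 111 fell to the 10 integrin genes, none of them to more than 1. MES had 10, HB 16, HE 29, HP 5 and MAC 51. At least 1 site was found in MES for 5 of the genes (65.7% of all genes), in HB for 6 (67.4%), in HE for 7 (71.1%), in HP for 4 (58.5%) and in MAC for all 10 (66.6%). Sites of the 4 beta2 integrin genes (Itgal, Itgam, Itgax and Itgb2) numbered 0, 0, 1, 2 and 19 in that order of stages, and those of the other 6 genes 10, 16, 28, 3 and 32. With every list cut to its 17734 widest sites, the beta2 genes had 6 sites in MAC. The beta2 genes were without a listed site in MES and HB and had most of theirs in MAC. Summed over the other 6 genes, sites were found in every list and were fewest in HP. Of these 6 genes, only Itgb1 had a site in each of the 5 lists.

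**Figure D1:**
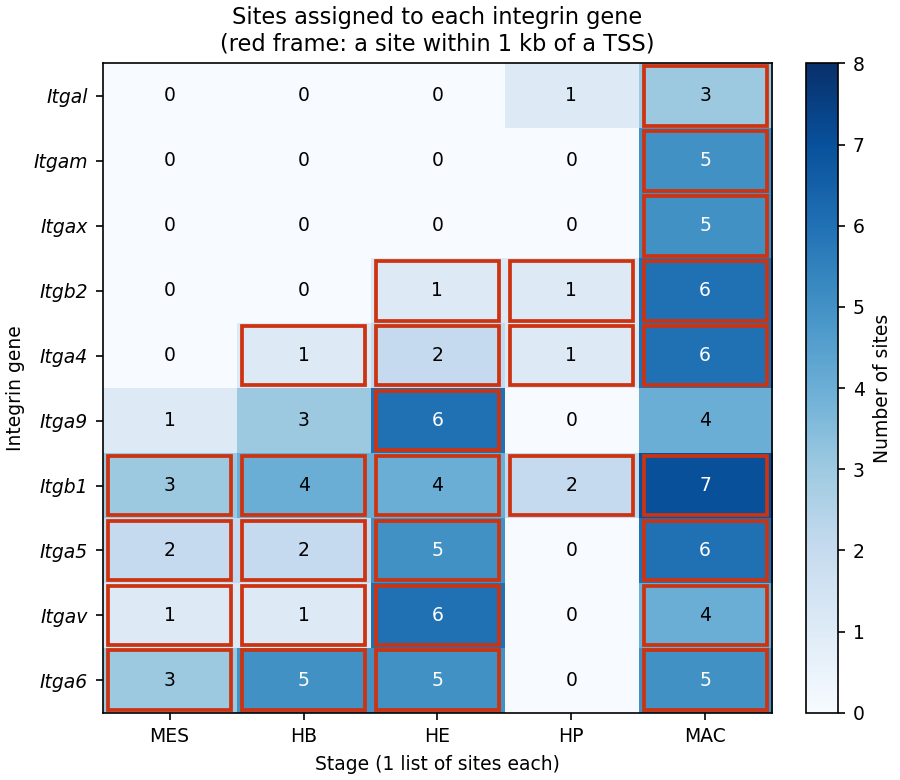
Number of DHSs assigned to each integrin gene (rows) in each stage (columns, 1 list each), with the count in the cell and in its colour, and a red frame where at least 1 of the sites is within 1 kb of a TSS. Itgam and Itgax have 5 sites each in MAC and 0 elsewhere, Itgb1 has a promoter site in all 5 lists, and Itga9, Itga5, Itgav and Itga6 have 0 sites in HP.

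The sequences below, in the mm10 reference as given by RefSeq, are those to which the following paragraphs return. The first line is the middle of the MAC site nearest to the Itgam TSS, the next the middle of the widest intronic MAC site of Itgam away from the promoter, and the third the Itgax promoter. The last lines contrast them with the promoters of Itgb1 and Itgav and with an upstream site of Itgb1. Its region was the only one assigned to these genes, away from their own promoters, that was listed in all 5 stages. Capitals mark exact matches, on either strand, to short consensus sequences of factors active in blood and mesoderm. For PU.1, a myeloid ETS factor, the letters were GAGGAAGT. Other ETS factors were searched as CCGGAA. The RUNX consensus was taken as TGTGGT, and C/EBP factors, which act with PU.1 in myeloid cells, as TTGCNNAA. For AP-1 the letters TGANTCA stood, and AGATAA was used for GATA factors. TEAD factors were searched as CATTCC, whereas ACAATG was the consensus for SOX factors and GGGCGG that for SP and KLF factors. All are printed on the plus strand, 5′ to 3′.
Itgam MAC site at +0.9 kb, chr7:128063360-128063659: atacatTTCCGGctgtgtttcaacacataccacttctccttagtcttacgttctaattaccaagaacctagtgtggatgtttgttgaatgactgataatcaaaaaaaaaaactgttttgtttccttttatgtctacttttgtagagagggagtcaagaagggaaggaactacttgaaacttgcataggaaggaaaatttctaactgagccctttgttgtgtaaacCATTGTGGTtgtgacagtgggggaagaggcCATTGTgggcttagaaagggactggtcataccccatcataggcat
Itgam MAC site at +26.6 kb, chr7:128089110-128089409: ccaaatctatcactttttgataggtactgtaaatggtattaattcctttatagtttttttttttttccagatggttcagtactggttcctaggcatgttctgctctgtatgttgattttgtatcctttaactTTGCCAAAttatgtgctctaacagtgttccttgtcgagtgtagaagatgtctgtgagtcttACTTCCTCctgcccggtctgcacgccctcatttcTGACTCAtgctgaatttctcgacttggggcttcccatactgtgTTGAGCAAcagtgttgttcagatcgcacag
Itgax promoter, 250 bases before the TSS, chr7:128129300-128129549: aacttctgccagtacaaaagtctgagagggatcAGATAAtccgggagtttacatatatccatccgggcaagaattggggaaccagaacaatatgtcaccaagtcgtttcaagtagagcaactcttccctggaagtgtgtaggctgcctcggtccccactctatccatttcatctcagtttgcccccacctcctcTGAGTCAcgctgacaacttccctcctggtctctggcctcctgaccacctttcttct
Itgb1 promoter, 250 bases before the TSS, chr8:128685404-128685653: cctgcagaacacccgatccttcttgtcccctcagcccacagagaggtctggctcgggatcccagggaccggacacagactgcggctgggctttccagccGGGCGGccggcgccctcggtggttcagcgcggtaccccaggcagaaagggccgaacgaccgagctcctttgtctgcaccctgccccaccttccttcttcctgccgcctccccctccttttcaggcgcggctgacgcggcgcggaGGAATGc
Itgav promoter, 250 bases before the TSS, chr2:83724147-83724396: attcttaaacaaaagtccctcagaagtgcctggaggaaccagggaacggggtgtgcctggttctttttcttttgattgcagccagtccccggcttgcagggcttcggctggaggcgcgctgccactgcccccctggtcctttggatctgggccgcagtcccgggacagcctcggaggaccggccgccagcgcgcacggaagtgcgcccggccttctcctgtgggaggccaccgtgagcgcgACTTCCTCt
Itgb1 site 31 kb upstream, 300 bases centred on its PU.1-type match, chr8:128654308-128654607: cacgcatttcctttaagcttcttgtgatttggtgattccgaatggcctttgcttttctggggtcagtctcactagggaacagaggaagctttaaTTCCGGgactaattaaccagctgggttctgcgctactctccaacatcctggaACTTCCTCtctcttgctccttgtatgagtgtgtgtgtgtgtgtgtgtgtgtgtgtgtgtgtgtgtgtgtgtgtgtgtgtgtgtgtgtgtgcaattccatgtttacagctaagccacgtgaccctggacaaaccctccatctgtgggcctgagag

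Among promoters, 4 of the 10 genes held a site in MES, against 57.2% of all genes, 5 in HB, against 58.9%, 7 in HE, against 61.7%, 3 in HP, against 50.1%, and 9 in MAC, against 50.2%. In HB and HE the count lay within 1 gene of the share of all genes, in MES and HP it was lower and in MAC higher. The MAC count rests on narrow sites: with every list cut to its 17734 widest sites, 3 of the 10 genes (Itgax, Itga4 and Itgb1) held a promoter site in MAC, against 39.8% of all genes. A promoter site in MAC without one in HP was found for 6 of the 10 genes, against 5.36% of all genes, and one in HE without one in HP for 4, against 12.4%. A promoter site in MAC only was found for 3 of the 10, Itgal, Itgam and Itgax, against 1.77% of all genes. Another 3, Itga5, Itgav and Itga6, had one in every list but HP, a pattern of 1.79% of all genes. Only Itgb1 held one in all 5 lists, the pattern of 43.4% of all genes. Among the widest sites, only Itgax had a promoter site in MAC without one in HP (against 2.32% of all genes), which was also in MAC only (1.1%), 3 (against 7.03%) had one in HE without one in HP, and 0 (against 0.5%) had one in every list but HP.

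Itgam, which encodes the alphaM chain (CD11b) of complement receptor 3, lies at chr7:128062640-128118491 on the plus strand. It had 0 sites in MES, HB, HE and HP and 5 in MAC. The MAC cells were sorted on CD11b, so the sites in MAC check the label. The promoter site of 600 bp lay in an intron with its middle 0.9 kb downstream of the TSS, and its nearest edge was 570 bp from that TSS, so the TSS itself lay outside every listed site. A further 2 sites of 600 and 300 bp lay 13.7 and 11.7 kb upstream, and 2 intronic sites of 300 and 700 bp lay 3.1 and 26.6 kb downstream. The widest of the 5, at chr7:128088910-128089609, had a width that 40.2% of MAC sites reached. Its sequence above shows a PU.1, an AP-1 and 2 C/EBP matches within 300 bases. The sequence of the site at +0.9 kb holds an ETS, a RUNX and 2 SOX matches, of which the RUNX match shares bases with a SOX match. In windows of 500 bp around the middle of MAC promoter sites, an ETS match was found in 36.4%, a RUNX match in 20.3% and a SOX match in 10.5% of 10441 sites.

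Itgax, which encodes the alphaX chain (CD11c) of complement receptor 4, lies downstream of Itgam on the same strand at chr7:128129526-128150657. It too had 0 sites in MES, HB, HE and HP and 5 in MAC. Its promoter site was 1000 bp wide, a width reached by 15.3% of MAC sites, and covered the TSS, unlike that of Itgam. The other 4 were a site of 200 bp at 19.0 kb upstream, inside an intron of Itgam, one of 900 bp at 7.8 kb upstream, one of 800 bp over a coding exon 4.3 kb downstream and one of 500 bp in an intron 9.0 kb downstream. The site inside Itgam was given to Itgax because its TSS was nearer. With the nearest gene taken by gene body, Itgam had 7 sites in MAC and Itgax 3, so the equal counts depend on the rule. The 250 bases before the Itgax TSS hold a GATA and an AP-1 match, which 9.99% and 6.75% of 32851 promoters of that length hold. Itgad, the next gene of this family and no member of the 10, had no site in any list.

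Itgal encodes the alphaL chain of LFA-1, a leukocyte receptor for ICAM proteins, at chr7:127296139-127335137. It had 0 sites in MES, HB and HE, 1 in HP and 3 in MAC. In MAC its promoter site was 500 bp wide and lay in an intron, 750 bp from the TSS at its nearest edge. The other MAC sites, of 300 and 200 bp, lay 8.1 and 5.9 kb upstream, inside the noncoding gene Gm31897. Its HP site of 400 bp, 10.7 kb upstream, was the only region of the 10 genes that was listed in HP alone. The upstream sites are thus narrow for their lists: 96.2% of HP sites were at least 400 bp wide, and 98.8% of MAC sites at least 200 bp.

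Itgb2 encodes the beta2 chain, without which the 3 alpha chains above do not reach the surface, at chr10:77530329-77565708. It had 0 sites in MES and HB, 1 each in HE and HP and 6 in MAC. In HE a site of 1500 bp at chr10:77530611-77532110 lay in an intron, 241 bp downstream of the TSS at its nearest edge, and in HP a site of 1000 bp at chr10:77530811-77531810 lay within it. In MAC the promoter site was a different one, of 400 bp at chr10:77530181-77530580, which covered the TSS and ended before the HE and HP sites began. A further MAC site of 300 bp, 1.5 kb downstream, fell inside the HE interval. The other 4 MAC sites lay in introns 6.6, 10.5, 14.8 and 20.8 kb downstream and were 1100, 400, 500 and 900 bp wide. Itgb2 was the only beta2 gene with a site in HE, though Itgal had 1 too where the nearest gene was taken by gene body, and its promoter pattern of HE, HP and MAC was that of 0.438% of all genes. Fermt3, whose product kindlin-3 activates integrins in blood cells, had the same pattern.

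**Figure D2:**
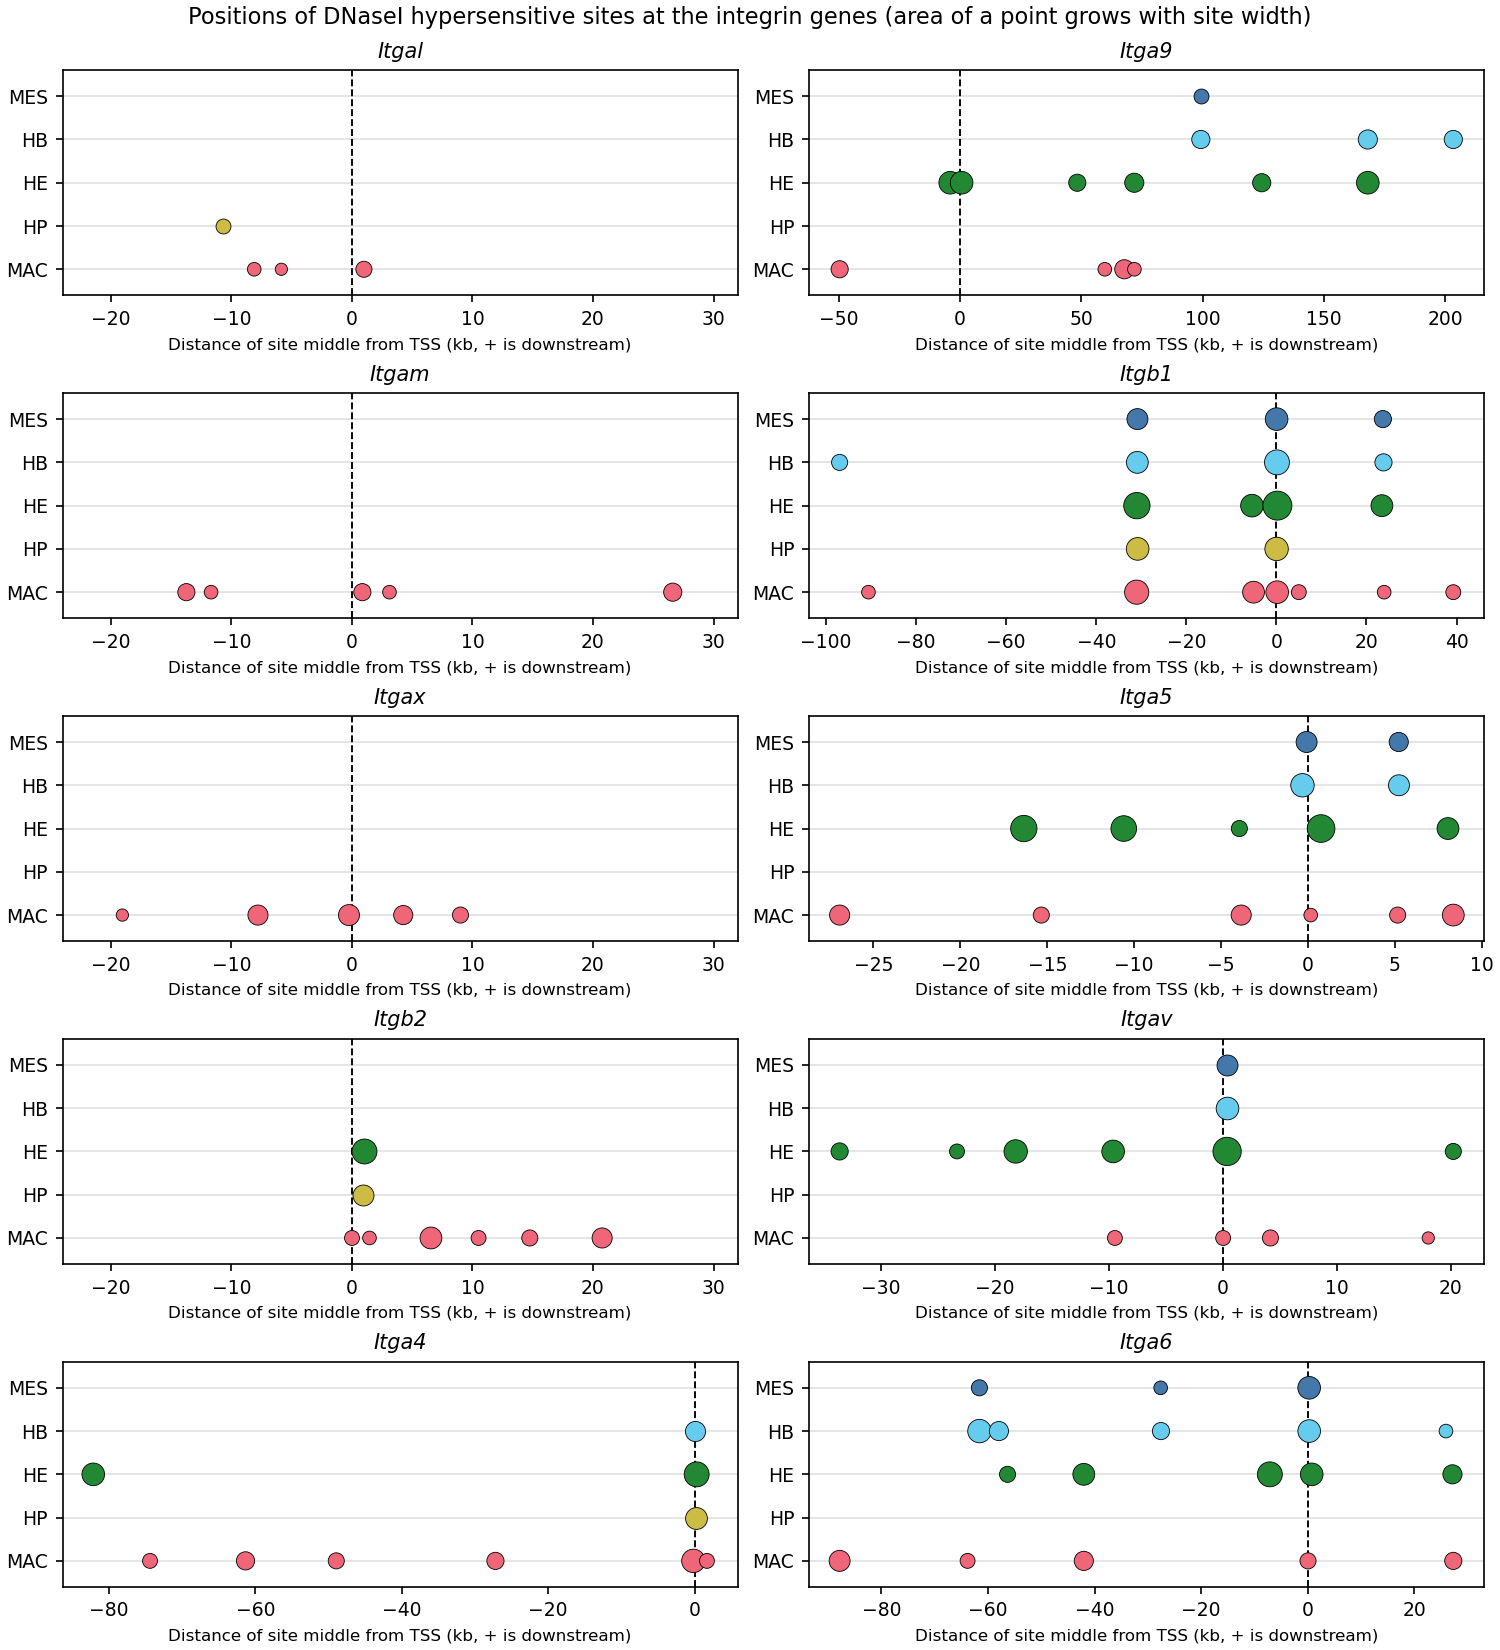
Position of each DHS at the 10 integrin genes, as the distance of its middle from the most upstream curated TSS in kb (x axis, scales differ between panels except for the first 4 genes, dashed line at the TSS), by stage (rows within a panel). Points of larger area are wider sites; Itgam and Itgax show points in MAC only, and the Itgb1 points near 31 kb upstream and at the TSS line up in all 5 stages.

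Itga4, whose product pairs with beta1 to bind VCAM1 and fibronectin, lies at chr2:79255426-79333114. It had 0, 1, 2, 1 and 6 sites in MES, HB, HE, HP and MAC, and was the only member with a promoter site in HB and not in MES, against 3.78% of all genes. Its pattern, every list but MES, was that of 0.548% of all genes. The promoter site covered the TSS in each of the 4 lists and had widths of 900, 1500, 1100 and 1300 bp from HB to MAC. In MAC a width of 1300 bp was reached by 3.42% of sites. Away from the promoter HE had a site of 1200 bp 82.2 kb upstream, and MAC had 4 sites between 74.4 and 27.2 kb upstream and 1 in an intron 1.7 kb downstream, all of them 400 to 700 bp wide. None of these was shared between HE and MAC. With the nearest gene of any kind, Itga4 had 1 site in HE and 2 in MAC, and with a distance limit of 50 kb 1 in HE and 4 in MAC.

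Itga9 encodes the other alpha chain of that subfamily, a receptor for tenascin and VCAM1, over 294.3 kb at chr9:118606709-118901003, the longest of the 10 genes. It had 1, 3, 6, 0 and 4 sites in MES, HB, HE, HP and MAC. A promoter site was listed only in HE, a pattern of 3.09% of all genes, was 1200 bp wide and covered the TSS. Among the 17734 widest sites of each list, Itga9 had no promoter site. In HE there was another site of 1200 bp 4.1 kb upstream and 4 in introns 48.3, 71.8, 124.3 and 168.1 kb downstream. The intronic site at 168.1 kb was also listed in HB, that at 71.8 kb also in MAC, and one at 99.2 kb in MES and HB. An intronic site at 203.3 kb was listed in HB alone. In MAC the gene had 2 intronic sites of its own at 59.6 and 67.7 kb, and a site 49.7 kb upstream that lay over a coding exon of the neighbouring gene Golga4 and covered an annotated start of it. With the nearest gene taken by gene body, Itga9 had 5 sites in HB, 7 in HE and 3 in MAC.

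Itgb1 lies at chr8:128685654-128733579 and had 3, 4, 4, 2 and 7 sites in MES, HB, HE, HP and MAC. By the main rule, no other member had as many over all lists. With the nearest gene taken by gene body it had 3, 3, 4, 2 and 6, fewer in all than Itga6 with 3, 5, 6, 0 and 7. With the nearest gene of any kind it had 2, 2, 3, 1 and 4, fewer in all than Itga5 with 2, 2, 5, 0 and 4. The Itgb1 promoter site covered the TSS in every list and had widths of 1200, 1500, 2100, 1300 and 1200 bp from MES to MAC. The 250 bases before the TSS hold an SP/KLF and a TEAD match, as do 32.7% and 12.6% of promoters. The HE site was the widest of all 111, a width reached by 2.45% of HE sites. The second region listed in all 5 stages lay in intergenic sequence 30.8 to 31.0 kb upstream, at chr8:128653824-128655523 in HE, with widths of 1000, 1100, 1700, 1200 and 1400 bp from MES to MAC. It holds the annotated start of Gm45746, a short transcript model of unknown coding status. With the nearest gene of any kind, the promoter site was the only HP site of Itgb1, so this upstream region was not assigned to it there. The sequence of this region above holds a PU.1 and an ETS match, and the PU.1 match lay inside the deposited interval of every stage. A PU.1 match was found in the central 500 bp of 7.25% of HE and 13.6% of MAC sites away from promoters.

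The remaining Itgb1 sites came and went between lists. An intronic site about 23.4 to 23.9 kb downstream was listed in MES, HB, HE and MAC and not in HP, with widths of 600, 600, 1100 and 300 bp. A site 5.1 to 5.4 kb upstream was listed in HE and MAC, at 1200 and 1100 bp. HB alone had a site 97.0 kb upstream, and MAC alone had sites 90.6 kb upstream and 5.0 and 39.3 kb downstream. Among all genes, Nrxn2 had the same site counts as Itgb1 in all 5 lists, and 4 genes (Glipr2, Smim14, Stk32c and Tmsb10) differed from it by 1 site summed over the 5 lists. Other members had fewer than 20 sites in all and were not compared in this way.

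Itga5 encodes the alpha chain of the main fibronectin receptor, on the minus strand at chr15:103344286-103366791. It had 2, 2, 5, 0 and 6 sites in MES, HB, HE, HP and MAC. Its promoter site had widths of 1000, 1300, 1900 and 300 bp in MES, HB, HE and MAC, and all but the last covered the TSS, which the MAC site missed by 6 bp. The middle of the HE site lay 0.8 kb inside the gene, whereas those of MES and HB lay 0.1 and 0.3 kb upstream, so in windows of 500 bp the HE site did not merge with the others although the deposited intervals overlap. An intronic site 5.2 kb downstream was listed in MES, HB and MAC, while one at 8.0 to 8.4 kb downstream and one at 3.8 to 4.0 kb upstream were listed in HE and MAC. HE alone had a site of 1600 bp at 10.6 kb upstream, and MAC alone had one of 900 bp at 26.9 kb upstream. An HE site of 1700 bp at 16.4 kb upstream and a MAC site of 500 bp at 15.3 kb upstream overlapped at their edges, without merging as windows.

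Itgav encodes the alphaV chain, at chr2:83722303-83806917, and had 1, 1, 6, 0 and 4 sites in MES, HB, HE, HP and MAC. In MES and HB the promoter site was the only one. It covered the curated TSS and had widths of 1000, 1200, 2000 and 400 bp in MES, HB, HE and MAC. HE had 4 further sites 33.6, 23.3, 18.2 and 9.6 kb upstream and 1 in an intron 20.2 kb downstream. Of these only that at 9.6 kb had a counterpart in MAC, at 1200 bp in HE and 400 bp in MAC. MAC alone had intronic sites 4.2 and 18.0 kb downstream. The Itgav promoter sequence above ends in a PU.1 match, which 2.44% of promoters of that length hold.

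Itga6 encodes the alpha chain of laminin receptors, at chr2:71786886-71858427. It had 3, 5, 5, 0 and 5 sites in MES, HB, HE, HP and MAC, and 1, 2, 3, 0 and 2 with the nearest gene of any kind. Its promoter site was 1200 bp wide in MES, HB and HE and 500 bp in MAC, and covered the TSS except in HE, where it began 131 bp downstream of it. MES and HB shared 2 regions, 61.6 kb upstream, inside the noncoding gene Platr26, and about 27.6 kb upstream. HB alone had sites 57.9 kb upstream and 25.9 kb downstream. HE and MAC shared 2 regions, 42.0 kb upstream, inside the noncoding gene Gm17250, and about 27.1 kb downstream, in an intron. HE alone had sites of 500 and 1500 bp at 56.3 and 7.1 kb upstream, and MAC alone had sites of 1000 and 400 bp at 87.8 and 63.8 kb upstream. Away from the promoter, no Itga6 region was listed both in MES or HB and in HE or MAC.

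The 5 HP sites were the Itgb1 promoter and upstream sites, the Itga4 promoter site, the Itgb2 intronic site near its TSS and the narrow Itgal upstream site. Itga9, Itga5, Itgav and Itga6 had at least 4 sites in HE and none in HP, which 0.943% of all genes had. With every list cut to its 17734 widest sites they had 0, 3, 3 and 2 sites in HE and none in HP, and with the nearest gene taken by gene body Itga5 had 1 in HP. The HP list was also the shortest, with a mean of 0.869 sites per gene over all genes against 1.52 in HE. From MES to MAC the integrin genes had a mean of 1.0, 1.6, 2.9, 0.5 and 5.1 sites, and all genes 1.05, 1.16, 1.52, 0.869 and 1.69. At least 4 sites in HE were found for 5 of the 10 genes, against 10.4% of all genes, but for 0 of the 10 among the widest sites (2.46% of all genes) and at or above the median width (2.6%). At least 5 sites in MAC were found for 7 of the 10 genes, against 9.09% of all genes, but for 0 of the 10 both among the widest sites (1.81% of all genes) and at or above the median width (2.2%). As a share of its list, the integrin genes took 0.0456% of MES sites (95% Wilson interval 0.0248 to 0.0839), 0.0647% of HB sites (0.0398 to 0.105), 0.0871% of HE sites (0.0606 to 0.125), 0.0282% of HP sites (0.0120 to 0.0660) and 0.136% of MAC sites (0.104 to 0.179). These intervals cover counting error only. They take each site as independent although several sites fell to the same gene, and they are no test between stages. The MAC interval lay above those of MES and HP and overlapped those of HB and HE, and the HP interval overlapped those of MES, HB and HE. With each list cut to its 17734 widest sites, the MAC interval (0.0686 to 0.167) overlapped those of MES, HB and HE and lay just above that of HP (0.0120 to 0.0660).

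**Figure D3:**
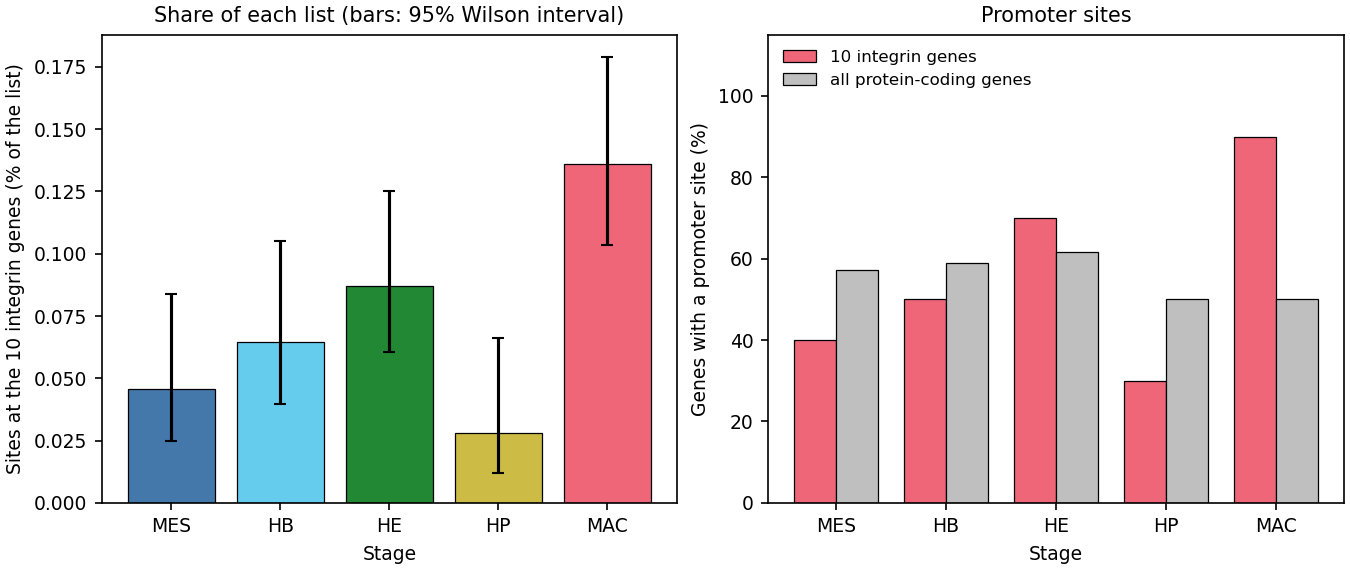
Left, sites at the 10 integrin genes as a percentage of all sites of each stage's list, with 95% Wilson intervals that cover counting error only. Right, percentage of genes with a promoter site for the 10 integrin genes and for all 21000 protein-coding genes; the integrin genes with one number 9 of 10 in MAC and 3 of 10 in HP, against 50.2% and 50.1% of all genes.

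To see which sites are shared, sites were set to 500 bp around their middle and merged across stages where they overlapped by the minimum of the study's own rule. This gave 76 integrin regions of 68846 in all, 13 at promoters and 63 away, of which 33 were intergenic, 28 in introns and 2 over coding exons. Regions of a single list made up 56 of the 76, or 73.7%, against 60.2% of all regions. Those of MAC alone were 36 (47.4%, against 31.0%) and those of HE alone 15 (19.7%, against 17.1%). HE and MAC together, without the other lists, held 7 (9.21%, against 3.48%), and regions of all 5 lists were 2 (2.63%, against 13.2%), both of Itgb1. In all, 9 regions (11.8%, against 5.21%) were listed in HE and in MAC but not in HP, which lies between them in the differentiation. They belonged to Itgb1, Itga5, Itgav, Itga6 and Itga9, and none to a beta2 gene. Over the deposited intervals in place of the windows, 72 of 65654 regions were of integrin genes. Of these, 51 (70.8%, against 57.6% of all) were of a single list, 34 (47.2%, against 31.1%) of MAC alone, 12 (16.7%, against 15.4%) of HE alone and 8 (11.1%, against 3.98%) of HE and MAC alone.

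The promoter sites also differed in base composition, a feature the assignment did not use. The ratio of observed to expected CpG dinucleotides in the central 500 bp was 0.0988 at Itgal, 0.258 at Itgam and 0.217 at Itgax in MAC. At Itgb2 it was 0.0872 in HE, 0.0879 in HP and 0.303 in MAC. All of these lay below the median of all promoter sites, which was 0.744 in HE, 0.799 in HP and 0.771 in MAC, where 26.3% of promoter sites had a ratio under 0.6. At Itgb1 the ratio was 0.980 to 1.09 over the 5 lists, at Itgav 0.847 to 1.00 and at Itga6 0.699 to 0.887. It was 0.420 to 0.723 at Itga5, 0.310 to 0.671 at Itga4 and 0.537 at Itga9, so the values ran on from those of the beta2 genes to those of Itga6. The ratio depends on where a site lies, and the Itgal and Itgam sites began downstream of the TSS. So did the Itgb2 sites in HE and HP, the Itga6 site in HE and, by 6 bp, the Itga5 site in MAC. In the 250 bases before the TSS it was 0.390 at Itgam, 0.336 at Itgax and 0.234 at Itga4, against a median of 0.373 over all promoters, and 0.570 at Itga5, 0.694 at Itgav and 0.741 at Itgb1.

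**Figure D4:**
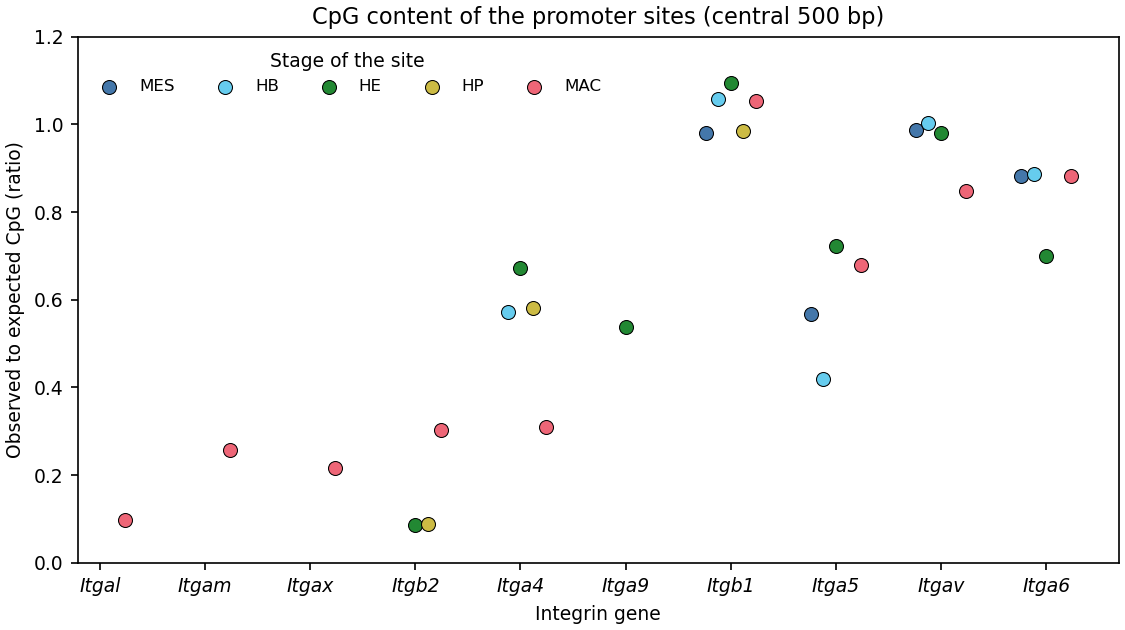
Ratio of observed to expected CpG in the central 500 bp of each promoter site (y axis) by gene (x axis), 1 point per stage in which the promoter site was listed. Points of Itgal, Itgam, Itgax and Itgb2 lie between 0.0872 and 0.303, and those of Itgb1 between 0.980 and 1.09.

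Exact motif matches at sites away from promoters are given as a description, with few member sites behind them. Of 42 such MAC sites, 8 (19.0%) held a PU.1 match in their central 500 bp, against 13.6% of all 27015 MAC sites away from promoters. C/EBP matches were in 11 (26.2%, against 28.2%), and 8 of these 11 were among the 15 sites of the beta2 genes. ETS matches were in 8 (19.0%, against 7.49%), RUNX matches in 12 (28.6%, against 40.2%), AP-1 matches in 13 (31.0%, against 33.7%) and TEAD matches in 5 (11.9%, against 24.3%), with 0 of the 5 at a beta2 gene. A PU.1 match contains no ETS match as spelled here, so the counts differ. Of 22 such HE sites, 9 (40.9%) held an AP-1 match, against 25.9% of 20385 HE sites, 9 a SOX match (40.9%, against 28.5%) and 4 a PU.1 match (18.2%, against 7.25%). In HE, TEAD matches were in 8 (36.4%, against 33.0%), GATA matches in 8 (36.4%, against 31.9%), RUNX matches in 6 (27.3%, against 34.9%), C/EBP matches in 2 (9.09%, against 18.0%), ETS matches in 2 (9.09%, against 10.8%) and SP/KLF matches in 3 (13.6%, against 16.1%). In MAC, GATA matches were in 10 (23.8%, against 21.3%), SOX matches in 11 (26.2%, against 25.1%) and SP/KLF matches in 4 (9.52%, against 11.2%). Of the 15 beta2 sites in MAC, 4 held a PU.1, 2 an ETS, 5 a RUNX and 5 an AP-1 match. A GATA match was in 5 of these 15, a SOX match in 4 and an SP/KLF match in 0.

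The 16 other integrin genes were followed in the same lists. From MES to MAC a promoter site was listed for 7, 9, 9, 4 and 3 of them, against 57.2, 58.9, 61.7, 50.1 and 50.2% of all genes. The 3 in MAC were Itgb3, Itgb5 and Itgb8, and Itgb3 was the only one of the 16 with a promoter site in all 5 lists. Itga2b, which encodes CD41, had a promoter site in HE and HP and 2, 2, 2, 4 and 1 sites from MES to MAC, although the HE cells were sorted as CD41-. Of 15 genes whose products link integrins to the cytoskeleton or activate them, 10, 10, 14, 9 and 11 had a promoter site from MES to MAC, and 6 had one in all 5 lists (Tln1, Ilk, Ptk2, Vcl, Pxn and Zyx). Of all genes, 57.2, 58.9, 61.7, 50.1 and 50.2% had one from MES to MAC, and 43.4% in all 5 lists. Tln2, a second talin gene, had one in HE only, and Parvg, the parvin gene of blood cells, in MAC only.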

How the data were processed

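DNaseI-seq lists of 5 stages were used as deposited. For these, the study's methods state that reads were trimmed (CutAdapt) and aligned with Bowtie to mm10, that unique reads without duplicates (Picard) were kept, and that the authors found sites with DFilter, which works in 100 bp bins. The submitters' processing notes also name HOMER, and versions were not given in the sources used here. The deposited columns are start and end positions in bp, with no score or count, so depth and its precision are unknown, as are the DNase I dose and the PCR cycles behind each list, for which the labels give ranges only, and width follows the calling of each list.

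Genes and TSS came from RefSeq on GRCm38.p6, whose chromosomes are those of mm10, with 25999 curated TSS positions. All transcripts of a gene defined its promoter, and curated mRNAs defined the nearest gene. Sites were assigned, merged and searched for motifs with Python 3.11.15, pandas 2.3.3 and numpy 2.4.6, after the assignment had been tested on simulated data. All 10 members are named. Of the other integrin genes, adhesion partners and ligands, those with a promoter site in 1 stage are named. Further genes of these lists and of the marker lists were named after their values were seen. Away from promoters, regions over 1500 bp wide are named. The genes most like a member were sought for members with at least 20 sites. The members and gene lists were chosen with earlier results of these data known. The promoter sequence table matched 7 of the 10 members, all but Itgal, Itgb2 and Itga6. For Itga9 it held an internal TSS only, away from its promoter site, and that sequence was not used. Alternatives varied the promoter reach, the distance limit, the nearest-gene rule, the merging overlap and the width of sites.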

Additional observations from a re-analysis of the deposited data

How the results depend on the processing

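No paired analysis was possible because each stage had 1 list and no result came from a test, and for the same reason no replicate could be left out. Of 90 alternative values for the counts over the 10 genes by stage and the merged regions, 77 stayed within 1.5 times the reported value and 13 did not. With only sites at or above their list's median width, the integrin sites numbered 6 in MES, 8 in HB, 17 in HE and 22 in MAC, promoters were open in MAC at 4 genes, where 41.4% of all genes were, and 39 merged regions were left. With each list cut to its 17734 widest sites, they numbered 10 in HB, 13 in HE and 19 in MAC, promoters were open in MAC at 3 genes, where 39.8% of all genes were, and 37 merged regions were left. With the nearest gene of any kind, noncoding ones included, HB had 10 sites and HP 3. Fewer sites or more genes enter by construction in each of these. For the beta2 genes alone, the 19 MAC sites became 8 at or above the median width and 6 among the widest, the 2 HP sites became 1 under the median width limit, likewise 1 if the nearest gene could be of any kind, and the 1 HE site became 2 with the nearest gene by gene body.

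Among the widest sites Itgam, Itgal and Itga9 had no promoter site in any list, and Itgb2, Itga5, Itgav and Itga6 had none in MAC. With a promoter reach of 100 bp in place of 1 kb, Itgam and Itgal had no promoter site, Itgb2 one in MAC only and Itga6 none in HE, so that 5 genes had one in HE, against 57.9% of all genes. The depth behind the lists is unknown and limits every absence given.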

Other observations

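The 11 integrin ligand genes followed, which include matrix proteins and cell surface partners, had a promoter site in 8, 8, 9, 5 and 5 cases from MES to MAC, against 57.2, 58.9, 61.7, 50.1 and 50.2% of all genes. Fn1, the fibronectin gene, had one in all 5 lists. Vcam1, which encodes the endothelial ligand of the products of Itga4 and Itga9, had one in HE only, with 0, 0, 2, 0 and 3 sites from MES to MAC, so the MAC sites lay away from its promoter. Spp1, which encodes osteopontin, had one in HP and MAC and 1, 1, 0, 1 and 5 sites. Ptk2b, a kinase gene of the adhesion partners, had 12 sites in MAC against 4 in HE and 1 in HP.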
